A study of Mus musculus with 4 samples.

Results

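Secreted WNT pathway activators, 7 WNT ligand genes (*Wnt2*, *Wnt2b*, *Wnt4*, *Wnt5a*, *Wnt5b*, *Wnt6* and *Wnt11*) and 3 R-spondin genes (*Rspo1*, *Rspo2* and *Rspo3*), were followed by name in single-cell RNA sequencing of embryonic mouse gut stroma. All 10 genes were listed in every library. The 4 libraries came from untreated E12.5 embryos of EYFP males crossed with C57BL/6Nrj females, with 2 libraries of small intestine (SI) and 2 of large intestine with the cecum (LI). In each of 2 experiments 3 to 5 embryos were used, and live Itgb1+YFP+ cells lacking CD45, Ter119, CD31 and EpCAM were sorted, so that each library is a pool and not an animal. The labels name the stage as E12.5 in the titles and protocol but call the cells adult and lamina propria elsewhere. The stage of the titles was taken here. They name a 3′ and a 5′ library kit without saying which library had which, so that it is not known whether kit and region can be told apart.

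WNT ligands are lipid-modified in the endoplasmic reticulum by Porcn, carried to the cell surface by Wls and bound by Frizzled receptors, with Lrp5 and Lrp6 for signaling through beta-catenin or with Ror1, Ror2 and Ryk for signaling that does not need it. R-spondins bind Lgr4, Lgr5 and Lgr6 and remove the ubiquitin ligases Rnf43 and Znrf3, which would otherwise clear Frizzled from the membrane, and so raise the response of a cell to WNT. In the gut both kinds of signal come largely from the mesenchyme, where R-spondins sustain epithelial stem cells and Wnt5a is needed for the gut tube to lengthen.

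*Rspo1* and *Wnt2b* are shown by their promoters, because both were highest in mesothelial-like cells. The 250 bases before the RefSeq start are printed 5′ to 3′ (build GRCm38.p6), with GC boxes (GGGCGG) and CCAAT boxes on either strand in capitals. The *Rspo1* stretch lies at chr4:124986180-124986429 on the plus strand and the *Wnt2b* stretch at chr3:104961710-104961959 on the minus strand.
Rspo1: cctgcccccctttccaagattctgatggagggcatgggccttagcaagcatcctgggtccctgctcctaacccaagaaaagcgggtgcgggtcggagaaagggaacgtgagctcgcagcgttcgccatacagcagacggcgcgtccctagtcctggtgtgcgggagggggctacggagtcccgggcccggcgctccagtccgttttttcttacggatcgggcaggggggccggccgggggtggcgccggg
Wnt2b: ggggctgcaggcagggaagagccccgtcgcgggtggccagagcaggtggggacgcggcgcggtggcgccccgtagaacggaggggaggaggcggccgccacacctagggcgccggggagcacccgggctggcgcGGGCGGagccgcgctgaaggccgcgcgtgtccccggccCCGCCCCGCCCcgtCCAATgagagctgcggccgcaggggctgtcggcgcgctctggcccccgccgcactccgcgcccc
The *Wnt2b* stretch held 3 GC boxes, a pair of them overlapping, and 1 CCAAT box, and the *Rspo1* stretch held neither, nor a TCF/LEF core (CTTTGAT) or a CDX and posterior HOX core (TTTATG). Of 32851 promoters of 300 bases, 35.7% held a GC box, 37.4% a CCAAT box, 3.73% the TCF/LEF core and 11.9% the CDX and HOX core. Promoter entries were found for 7 of the 10 members. In GENCODE M21 (GRCm38) *Wnt2b* spans chr3:104945272-104961921 on the minus strand. Most of its printed stretch, with every marked box, therefore lies inside that span and not before it. *Rspo1* spans chr4:124986430-125009099 and *Rspo3* chr10:29452416-29535867, *Rspo2* spans chr15:43020794-43170826, and *Wnt5a* spans chr14:28504750-28527448, where its exons overlap those of the antisense gene *Gm2670*. Whether the counting used strand is not given in the sources used here, so reads of this pair may not be told apart.

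The libraries held 31630548 to 62886525 UMIs (unique molecular identifiers, each standing for 1 captured RNA molecule) in 5151 to 6881 barcodes, and 22094 of 24485 barcodes were kept after filtering. LI replicate 1 was the shallowest, where kept cells had a median of 4221 UMIs against 8382 to 8829 in the others. Between 8 and 15 barcodes were shared by any 2 libraries. No member was used for clustering. Genes expressed together with members still shaped the clusters, so a test between classes says how a difference repeats over libraries. Clusters were called mesothelial-like, smooth muscle cell (SMC)-like or neural-like from marker genes among their leading genes, with 171 to 639, 816 to 1958 and 220 to 436 cells per library. Fibroblast (FB)-like is the remainder, 2366 to 3453 cells per library in 3 clusters with 0 class markers among their leading genes and 9 of 10 FB markers each found in at least 10% of their cells. The summed FB markers of these cells, 1126 and 1809 CPM in LI and 1282 and 1928 CPM in SI, lay below those of mesothelial-like cells and of cluster 3 in every library, so that these markers do not set them apart. *Upk3b*, a mesothelial gene, was found in 74.4 to 86.3% of mesothelial-like cells and in 0.0790 to 0.508% of FB-like cells, all thinned to 3000 UMIs, which gauges free RNA and misplaced cells. *Sox10*, a neural crest gene, was found in 15.7 to 33.3% of neural-like cells and in at most 0.127% of FB-like cells. Clusters 3 (*Bmp3*, *Col14a1* and *Nrg1*), 6 (*Hist1h2bc*, *Epcam* and *Ccnb2*), 9 and 10 stayed without a class. Levels are given as CPM, the UMIs of a gene scaled to the same total of UMIs in every class and library, and are compared within a gene only.

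The members fell into those found throughout the mesenchyme, those concentrated in a class and those barely detected. *Wnt5a* gave 32877 UMIs over all kept cells, *Rspo3* 19292, *Rspo1* 5810, *Wnt5b* 2966, *Wnt4* 2128, *Wnt11* 575, *Rspo2* 280 and *Wnt2b* 185. *Wnt6* gave 30 UMIs and *Wnt2* 21 over the 4 libraries, and neither was tested in any class. Of the 10 *Wnt2* UMIs of SI replicate 2, 9 were in cluster 10.

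**Figure D1:**
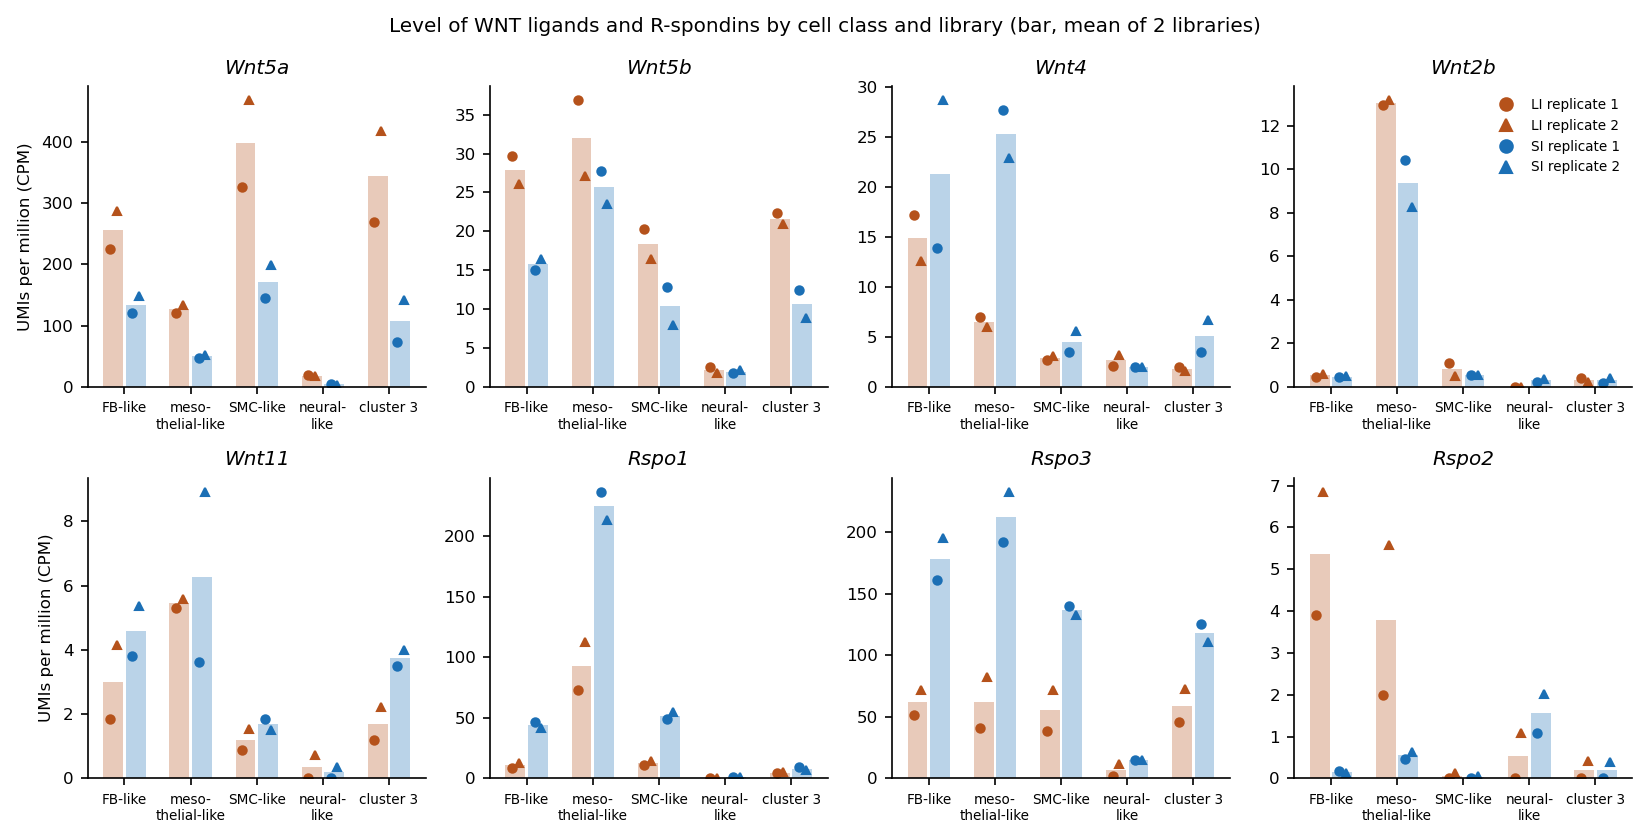
Level of 8 members (CPM, y axes starting at 0) in FB-like, mesothelial-like, SMC-like and neural-like cells and cluster 3, with 1 point per library and bars at the mean of 2 libraries (LI orange, SI blue). *Rspo1* and *Wnt2b* stood highest in mesothelial-like cells, *Wnt5a* lowest in neural-like cells, and SI lay above LI for *Rspo1* and *Rspo3* in all 5 groups.

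First, the R-spondins were compared between SI and LI. *Rspo1* and *Rspo3* of FB-like cells were higher in SI and *Rspo2* in LI, and all 3 passed the test. *Rspo1* measured 8.46 and 12.9 CPM in the LI libraries and 46.6 and 41.7 CPM in the SI libraries of FB-like cells. The regions did not overlap, and the mean rose from 10.7 ± 3.15 to 44.1 ± 3.47 CPM (SD, n = 2 libraries each), a log2 change of 2.19 ± 0.24 (SE, adjusted p = 0.00289 by the edgeR quasi-likelihood test with Benjamini-Hochberg adjustment over all genes, as throughout). *Rspo3* measured 51.3 and 71.9 CPM in LI and 161 and 195 CPM in SI. Again both SI libraries lay above both LI libraries, with a log2 change of 1.68 ± 0.21 (adjusted p = 0.00477).

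*Rspo2* showed the opposite order and was close to the limit of detection in SI. FB-like cells held 59 and 157 *Rspo2* UMIs in the LI libraries (3.90 and 6.85 CPM) and 4 and 3 UMIs in the SI libraries (0.179 and 0.133 CPM). The summed rate was 36.4 times higher in LI, with a 95% interval of 17.4 to 91.7 that covers counting error only, and the fitted log2 change was −4.91 ± 0.49 (adjusted p = 0.00203). *Rspo2* passed the filter on low counts only through the LI libraries, where it is high. Its call and its place in the count of called members are therefore a description. In mesothelial-like cells *Rspo2* was at 6 and 14 UMIs in LI and 1 UMI in each SI library and was not tested. The summed rate there was 6.83 times higher in LI (20 against 2 UMIs, 95% interval 1.66 to 60.3).

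Of the 8 members tested in FB-like cells, 2 were therefore called higher in SI and 1 in LI, where 3.26% of all 13731 genes tested were called in either direction, 1.02% with SI above LI and 2.24% with LI above SI. None of the 5 WNT ligands tested was among them by edgeR. At an unadjusted p under 0.05, 2 of the 5 passed, and DESeq2 called 1, *Wnt5a*, lower in SI. Mesothelial markers summed to 148.5 and 86.3 CPM in the FB-like cells of LI and 61.9 and 44.9 CPM in those of SI. SMC markers there summed to 877 and 1031 CPM in LI and 1361 and 1829 CPM in SI, neural markers to 40.4 and 52.9 CPM against 77.8 and 120.1 CPM, and pericyte markers to 38.8 and 51.2 CPM against 53.3 and 99.1 CPM. Endothelial markers summed to 16.8 and 13.4 CPM against 22.4 and 22.6 CPM, and epithelial markers to 10.8 and 14.1 CPM against 6.03 and 6.34 CPM. The regions overlapped in none of these lists, and their part in the differences was not tested. Here and for the other cell groups, marker lists below 10 CPM in all 4 libraries are not given. Without LI replicate 2 the count in FB-like cells was 6, with *Wnt5a* (adjusted p = 0.042), *Wnt5b* (adjusted p = 0.0167) and *Wnt11* (adjusted p = 0.0187) added, while the count over all genes went from 448 of 13731 to 1613 of 13959.

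The SI and LI difference of *Rspo1* was smaller in mesothelial-like than in FB-like cells. In mesothelial-like cells *Rspo1* measured 73.4 and 113 CPM in LI and 237 and 213 CPM in SI. The regions did not overlap, and the log2 change was 1.35 ± 0.23 (adjusted p = 0.0145), with the mean 2.42 times higher in SI against 4.13 times in FB-like cells. The difference between the 2 log2 changes was −0.87 ± 0.14 (adjusted p = 0.00163), where 3.58% of genes were called in that test, 1.36% shifted towards SI and 2.22% towards LI. It was lost with all sums thinned to equal totals (−0.51, adjusted p = 0.478) and with cells holding markers of other classes left out (−0.64, adjusted p = 0.288). *Rspo3* in mesothelial-like cells measured 40.8 and 82.7 CPM in LI and 192 and 233 CPM in SI, a log2 change of 1.86 ± 0.28 (adjusted p = 0.00779) that did not differ detectably from that of FB-like cells (difference 0.18 ± 0.15, adjusted p = 0.614).

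In SMC-like cells *Rspo1* measured 10.8 and 14.0 CPM in LI and 49.0 and 54.4 CPM in SI. Both SI libraries lay above both LI libraries, with a log2 change of 2.19 ± 0.22 (adjusted p = 0.00399), and *Rspo1* was the only member of 6 called there, where 1.54% of genes were called, 0.432% with SI above LI and 1.11% with LI above SI. *Rspo3* measured 38.6 and 72.0 CPM in LI and 140.2 and 133 CPM in SI, without overlap, and missed the threshold (1.44 ± 0.27, adjusted p = 0.0505). It passed in 8 of 13 alternatives, including each of the 4 that left out a library. Set against the changes in FB-like cells, edgeR called 0 of 7 members (0.926% of genes called, 0.265% shifted towards SI and 0.661% towards LI), 1 member had an unadjusted p under 0.05, and DESeq2 called 0 of 5, while without SI replicate 2 *Wnt5a* was called (−0.39, adjusted p = 0.0335). SMC markers in these cells summed to 1479 and 5617 CPM in LI and 5024 and 10443 CPM in SI, with overlap. Without overlap, mesothelial markers summed to 129 and 41.0 CPM in LI and 28.7 and 15.0 CPM in SI, neural markers to 24.0 and 75.3 CPM against 80.9 and 153 CPM, and epithelial markers to 23.1 and 14.0 CPM against 13.5 and 5.53 CPM. Their part in the differences was not tested.

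Cluster 3, whose leading genes were *Bmp3*, *Col14a1* and *Nrg1*, held less *Rspo1* than FB-like cells in all 4 libraries. It measured 4.38 and 5.23 CPM in LI and 8.94 and 6.66 CPM in SI, a log2 change of 0.81 ± 0.35 that was not called (adjusted p = 0.246). Its difference from the log2 change of FB-like cells was −1.31 ± 0.30 (adjusted p = 0.0167), where 3.47% of genes were called, 1.33% shifted towards SI and 2.14% towards LI. *Rspo3* measured 45.4 and 72.8 CPM in LI and 126 and 110.4 CPM in SI of this cluster and was called (1.13 ± 0.23, adjusted p = 0.0259; 3.95% of genes called, 1.21% with SI above LI and 2.75% with LI above SI), with a difference from FB-like cells of −0.54 ± 0.14 (adjusted p = 0.0473). Markers of other classes moved with region in this cluster, without overlap. Pericyte markers summed to 31.5 and 70.6 CPM in LI and 98.7 and 251 CPM in SI, neural markers to 28.7 and 74.2 CPM against 158 and 151 CPM, mesothelial markers to 51.0 and 20.7 CPM against 10.1 and 2.26 CPM, and markers of interstitial cells of Cajal to 102.4 and 116 CPM against 92.5 and 80.7 CPM, and their part in the differences was not tested. Both differences from FB-like cells were lost without LI replicate 2 (−1.57, adjusted p = 0.16 for *Rspo1* and −0.42, adjusted p = 0.536 for *Rspo3*) and without SI replicate 2 (−1.17, adjusted p = 0.0641 and −0.29, adjusted p = 0.42), and also by DESeq2 (−1.34 and −0.52, adjusted p = 0.201 and 0.547). With cells holding markers of other classes left out, the *Rspo1* difference was −0.16 (adjusted p = 1.00) and that of *Rspo3* −1.08 (adjusted p = 0.258). The *Rspo1* difference was further lost in G1 cells (−1.27, adjusted p = 0.131), and that of *Rspo3* with thinned sums (−0.44, adjusted p = 0.19) and with more doublets removed (−0.52, adjusted p = 0.0713). The *Rspo3* call within the cluster was lost without SI replicate 1 (1.03, adjusted p = 0.172) or SI replicate 2 (1.25, adjusted p = 0.0905), in G1 cells (0.46, adjusted p = 0.408) and with cells holding markers of other classes left out (0.61, adjusted p = 0.71). In cluster 6 both R-spondins were called higher in SI, *Rspo1* by 2.69 ± 0.32 (adjusted p = 0.00133) and *Rspo3* by 2.01 ± 0.21 (adjusted p = 0.000513), where 1.64% of genes were called, 0.71% with SI above LI and 0.926% with LI above SI. SMC markers in cluster 6 summed to 560 and 1836 CPM in LI and 1889 and 3237 CPM in SI, neural markers to 12.3 and 44.4 CPM against 74.1 and 94.3 CPM, mesothelial markers to 129 and 58.0 CPM against 53.3 and 29.3 CPM, and epithelial markers to 79.0 and 77.1 CPM against 44.9 and 35.7 CPM, and their part in the differences was not tested.

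**Figure D2:**
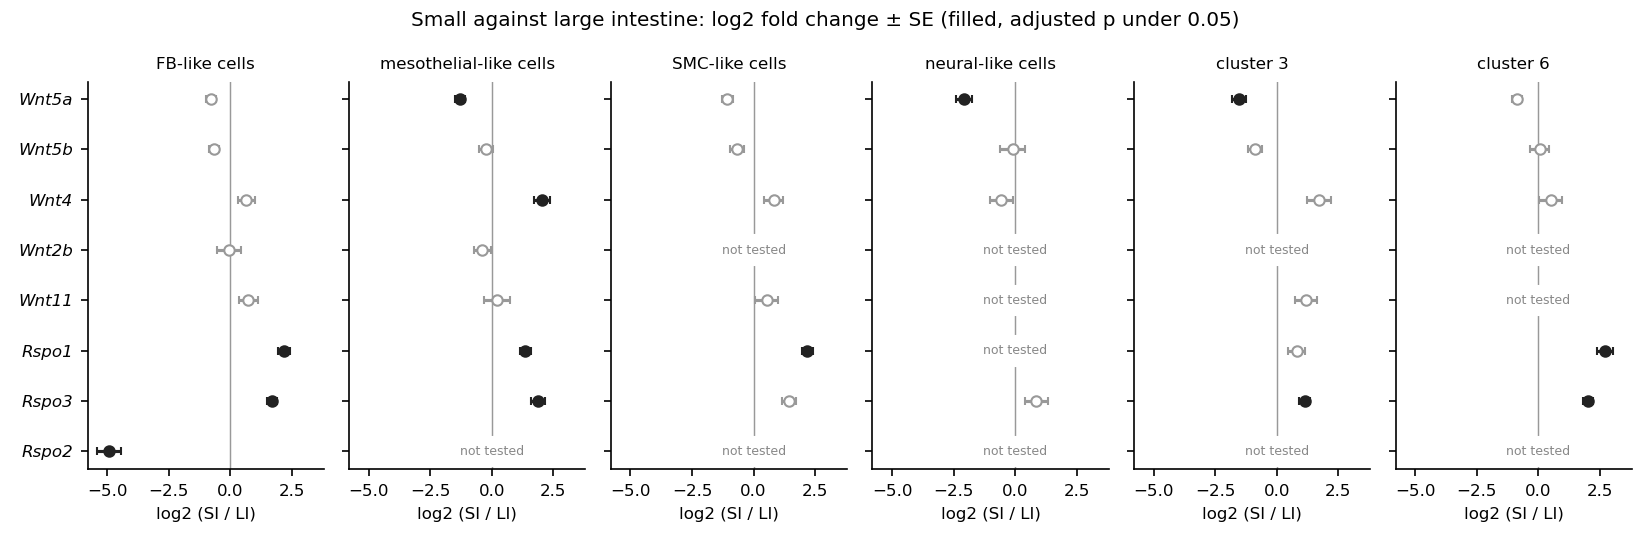
Log2 fold change of SI over LI ± SE (x axis) for 8 members in 4 cell classes and clusters 3 and 6, 2 libraries per region, from edgeR fits over all genes; filled points had an adjusted p under 0.05. *Rspo1* and *Rspo3* lay to the right of 0 and *Wnt5a* to the left wherever they were tested, and *Rspo2* in FB-like cells lay farthest from 0.

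Next, the WNT ligands known for signaling without beta-catenin were examined. *Wnt5a*, which binds Ror2, measured 226 and 286 CPM in LI and 120.4 and 148 CPM in SI of FB-like cells. Both LI libraries lay above both SI libraries, but the log2 change of −0.78 ± 0.19 missed the threshold (adjusted p = 0.0785). It passed in 6 of 15 alternatives. Among them were the replicate number as a block (adjusted p = 0.0146), DESeq2 (adjusted p = 0.00949), no filter on low counts (adjusted p = 0.0106) and G1 cells (adjusted p = 0.0294). The change was −0.94 without LI replicate 1 and −0.64 without LI replicate 2. In mesothelial-like cells *Wnt5a* measured 121 and 134 CPM in LI and 47.3 and 52.3 CPM in SI and fell by 1.29 on the log2 scale (SE 0.21, adjusted p = 0.012). This call was lost without SI replicate 1 (−1.23, adjusted p = 0.0841). The difference from the change in FB-like cells was −0.53 ± 0.15 and missed the threshold (adjusted p = 0.0625), but passed without LI replicate 2 (adjusted p = 0.0454) or SI replicate 1 (adjusted p = 0.0453).

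The same order held in the other groups. SMC-like cells held *Wnt5a* at 327 and 468 CPM in LI and 144 and 199 CPM in SI (−1.06 ± 0.24, adjusted p = 0.0898), and it passed without LI replicate 1 (adjusted p = 0.0339) or SI replicate 2 (adjusted p = 0.00902), with the replicate number as a block (adjusted p = 0.000172), by DESeq2 (adjusted p = 0.00207), with no filter on low counts (adjusted p = 1.44e-05) and at resolution 0.6 (adjusted p = 0.0461). Cluster 3 held it at 269.6 and 417 CPM in LI and 72.7 and 141 CPM in SI, where it was called (−1.54 ± 0.30, adjusted p = 0.0236), with a difference from FB-like cells of −0.76 ± 0.15 (adjusted p = 0.00465). The call in cluster 3 was lost without SI replicate 1 (−1.15, adjusted p = 0.155), and the difference from FB-like cells without LI replicate 2 (−0.62, adjusted p = 0.129). Neural-like cells held 19.0 and 17.05 CPM in LI and 5.21 and 3.67 CPM in SI (−2.08 ± 0.32, adjusted p = 0.0375), the only member called of 4 tested there, where 0.31% of genes were called, 0.106% with SI above LI and 0.204% with LI above SI. No LI library overlapped an SI library in any of these groups. Without SI replicate 2 the neural-like call was lost (log2 change −1.82, adjusted p = 1.00), and in that fit no gene was called. FB markers in neural-like cells summed to 73.5 and 68.2 CPM in LI and 56.2 and 39.8 CPM in SI, and endothelial markers to 46.9 and 42.2 CPM against 31.3 and 36.5 CPM. Markers of interstitial cells of Cajal summed to 104.3 and 94.9 CPM against 78.8 and 86.3 CPM, and neural markers to 3306 and 4147 CPM against 4757 and 5019 CPM, again without overlap. *Wnt5a* there was at 0.0248 to 0.0842 of its FB-like level, beside 0.00371 to 0.0242 for the FB marker *Pdgfra*, 0.00558 to 0.0192 for *Col1a1*, 0.0175 to 0.0418 for *Col3a1* and 0.0115 to 0.159 for *Col1a2*. The part of FB RNA in the call was not tested. *Rspo3* in neural-like cells measured 2.11 and 11.7 CPM in LI and 14.5 and 15.1 CPM in SI and was not called (0.85 ± 0.47, adjusted p = 0.707), although it was without LI replicate 2 (log2 change 2.68, adjusted p = 1.79e-05).

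*Wnt5b*, the close relative of *Wnt5a*, measured 29.7 and 26.1 CPM in LI and 15.1 and 16.5 CPM in SI of FB-like cells. The regions did not overlap, but the change was not called (−0.67 ± 0.20, adjusted p = 0.139). In mesothelial-like cells the libraries overlapped, with 36.9 and 27.2 CPM in LI and 27.7 and 23.6 CPM in SI. *Wnt11*, which acts in cell polarity, lay between 1.85 and 5.37 CPM in FB-like cells and between 3.63 and 8.92 CPM in mesothelial-like cells, and was not called between regions in either (adjusted p = 0.399 and 0.946).

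*Wnt4*, a ligand best known from kidney and gonad, differed by region in mesothelial-like cells. Mesothelial-like cells held *Wnt4* at 6.97 and 5.99 CPM in LI (21 and 15 UMIs) and 27.7 and 22.9 CPM in SI (61 and 36 UMIs). The regions did not overlap, and the log2 change was 2.03 ± 0.33 (adjusted p = 0.012). With cells holding markers of other classes left out it was 1.45 (adjusted p = 0.214). *Wnt4*, *Wnt5a*, *Rspo1* and *Rspo3* were the 4 called of 7 members tested in this class, where 1.15% of genes were called, 0.526% with SI above LI and 0.62% with LI above SI. FB markers in these cells summed to 1452 and 2459 CPM in LI and 2552 and 3616 CPM in SI, SMC markers to 786 and 530 CPM against 355 and 447 CPM, and markers of interstitial cells of Cajal to 56.4 and 87.4 CPM against 24.99 and 39.5 CPM, all without overlap, and their part in the differences was not tested. In FB-like cells *Wnt4* measured 17.2 and 12.7 CPM in LI and 13.9 and 28.7 CPM in SI, so that the regions overlapped (0.66 ± 0.34, adjusted p = 0.393). With cells holding markers of other classes left out, the change in FB-like cells was called (2.24 ± 0.43, adjusted p = 0.0284). The difference between these changes was 1.47 ± 0.39 (adjusted p = 0.0489). It was not called in 6 of 12 alternatives. It was 1.49 by DESeq2 (adjusted p = 0.158), 1.42 with thinned sums (adjusted p = 0.12), 1.49 with more doublets removed (adjusted p = 0.119) and 1.11 in G1 cells (adjusted p = 0.178). The difference was 0.76 without SI replicate 1 (adjusted p = 0.356) and turned to −0.67 with cells holding markers of other classes left out (adjusted p = 0.704), a filter that kept 12.7 to 37.6% of FB-like cells and 32.2 to 45.0% of mesothelial-like cells.

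*Wnt2b*, which signals through beta-catenin, was not called between regions in mesothelial-like cells, with 12.9 and 13.2 CPM in LI and 10.5 and 8.28 CPM in SI (−0.39 ± 0.35, adjusted p = 0.771). These values rest on 39, 33, 23 and 13 UMIs. *Wnt6*, another such ligand, was at 4 UMIs in the mesothelial-like cells of LI replicate 1 and at 0 in those of the other 3 libraries.

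The members were then compared between classes within the libraries, in 1 fit with the library as a block. Mesothelial-like cells had the highest level of *Wnt2b*, 16.97 to 28.0 times that of FB-like cells over the 4 libraries. FB-like cells held *Wnt2b* at 0.447 to 0.611 CPM and mesothelial-like cells at 8.28 to 13.2 CPM, a log2 difference of 4.46 ± 0.30 (adjusted p = 5.67e-08). *Wnt2b* passed the filter on low counts only through mesothelial-like cells, where it is high, so its call is a description. *Rspo1* was 5.08 to 8.75 times higher in mesothelial-like cells (2.74 ± 0.16, adjusted p = 1.82e-08), and *Wnt5b* was higher by 0.44 ± 0.14 (adjusted p = 0.0244), a call lost in 6 of 14 alternatives, among them without LI replicate 1 (0.47, adjusted p = 0.0737) and without SI replicate 1 (0.31, adjusted p = 0.184). *Wnt5a* was lower in mesothelial-like cells in all 4 libraries (−1.17 ± 0.16, adjusted p = 7.73e-05). These 4 of 8 members were called in a test that called 38.6% of genes, 19.8% higher in mesothelial-like and 18.9% higher in FB-like cells. *Rspo3* did not differ between the classes beyond its error (0.14 ± 0.15, adjusted p = 0.471).

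SMC-like cells had the highest *Wnt5a* of the classes in each library, by 0.52 ± 0.15 over FB-like cells (adjusted p = 0.0323). The call was lost without LI replicate 2 (0.44, adjusted p = 0.27) or SI replicate 1 (0.61, adjusted p = 0.106) and by DESeq2 (0.52, adjusted p = 0.0767). *Wnt4* was lower in SMC-like cells (−2.23 ± 0.31, adjusted p = 0.000326), as were *Wnt11* (−1.33 ± 0.31, adjusted p = 0.0119), *Wnt5b* (−0.59 ± 0.13, adjusted p = 0.00906) and *Rspo2* (−4.75 ± 1.21, adjusted p = 0.0194). *Rspo2* in SMC-like cells rested on 0, 1, 0 and 1 UMIs in the 4 libraries, and its fitted size depends on that floor. Without LI replicate 2 *Wnt5b*, *Wnt11* and *Rspo2* lost their calls (−0.58, −1.31 and −3.99, adjusted p = 0.0603, 0.07 and 0.207), and *Wnt5b* and *Wnt11* also without SI replicate 2 (−0.46 and −1.12, adjusted p = 0.0591 and 0.133), *Rspo2* also without LI replicate 1 (−4.28, adjusted p = 0.0539) or SI replicate 1 (−4.85, adjusted p = 0.0579). In all 5 of 8 members were called, against 11.8% of genes, 5.02% higher in SMC-like and 6.83% higher in FB-like cells, and 1 member was called without LI replicate 2. *Rspo1* and *Rspo3* were not called (0.29 ± 0.16, adjusted p = 0.288, and −0.26 ± 0.14, adjusted p = 0.271).

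Neural-like cells held little of most members. *Rspo1* was at 1, 0, 4 and 4 UMIs in these cells (−5.802 ± 0.363, adjusted p = 5.72e-09), and *Wnt5a*, *Wnt5b*, *Rspo3*, *Wnt4* and *Wnt11* were lower than in FB-like cells, with log2 differences of −4.23 to −2.90. These were 6 of 8 members, where 59.9% of genes were called, 28.8% higher in neural-like and 31% higher in FB-like cells. *Wnt2b* and *Rspo2* were not called (adjusted p = 0.0632 and 0.652), although *Wnt2b* passed without SI replicate 2 (adjusted p = 0.0456).

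**Figure D3:**
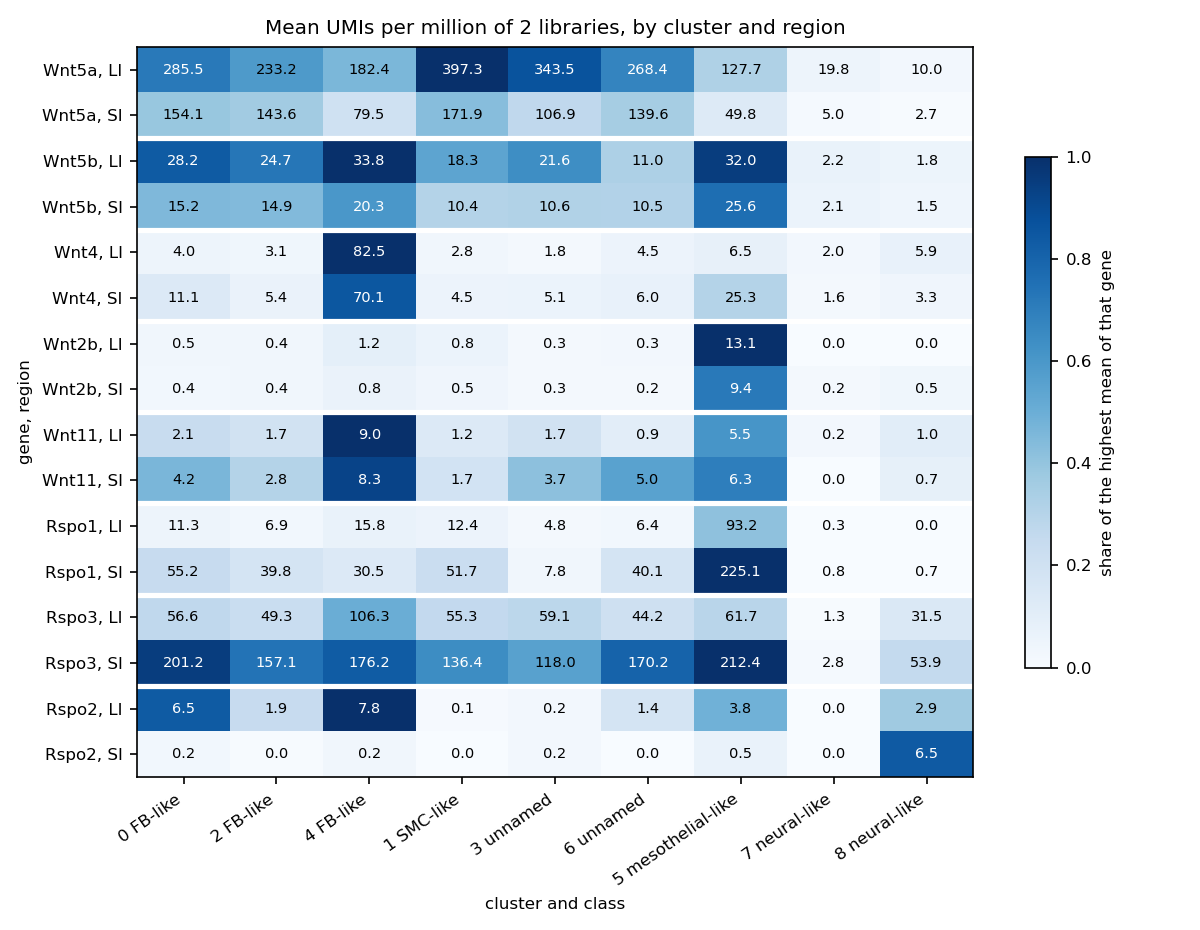
Mean CPM of the 2 libraries of each region (numbers) for 8 members in clusters 0 to 8, shaded by the share of the highest mean of that gene. *Wnt4* and *Wnt11* stood highest in cluster 4, *Rspo1* and *Wnt2b* in cluster 5, and *Rspo3* in cluster 8 stood above cluster 7, the other neural-like cluster.

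Within the classes some members were uneven, which is given as a description because clusters were not tested. In cluster 4, an FB-like cluster led by *Anxa2*, *Tac2* and *Slit2*, *Wnt4* measured 97.0 and 68.0 CPM in LI and 58.0 and 82.1 CPM in SI, whereas in the other FB-like clusters it lay between 2.81 and 12.4 CPM. *Wnt4* is itself among the leading genes of cluster 4, although it was not used to form it. Cluster 4 made up 7.17 and 7.04% of kept LI cells and 7.03 and 10.9% of kept SI cells, and SI replicate 2 was the library with the highest *Wnt4* in FB-like cells. *Wnt4* measured 102.6 and 80.2 CPM in the SI libraries of cluster 10, which had 121 cells in all and was led by *Pf4*, *Afp* and *Mt1*.

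Neural-like cells comprised cluster 7, with the progenitor genes *Foxd3* and *Sox10* among its leading genes, and cluster 8, led by the neuronal genes *Cartpt*, *Stmn2* and *Tubb3*. *Rspo3* lay between 1.10 and 3.17 CPM in cluster 7. In cluster 8 it measured 5.37 CPM (2 UMIs) in LI replicate 1, 57.6 CPM (60 UMIs) in LI replicate 2, and 56.5 and 51.4 CPM (58 and 69 UMIs) in SI. Thus 3 of 4 libraries lay near each other and LI replicate 1, with 44 cells, lay below. All *Rspo2* UMIs of neural-like cells, 22 in 3 libraries, were in cluster 8. They were 0 and 6 UMIs in LI and 5 and 11 in SI, which is 0 and 1.08 CPM against 1.09 and 2.02 CPM of neural-like cells. The higher LI and the lower SI value are nearly equal. Thus LI did not lie above SI as it did in FB-like cells, but no reversed order is read from these counts. Within cluster 8 the libraries overlapped, at 0 and 5.76 CPM in LI and 4.87 and 8.19 CPM in SI. Neural-like cells held 50 and 55% of the *Rspo2* UMIs of the SI libraries, and *Rspo2* was not tested between regions in this class.

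**Figure D4:**
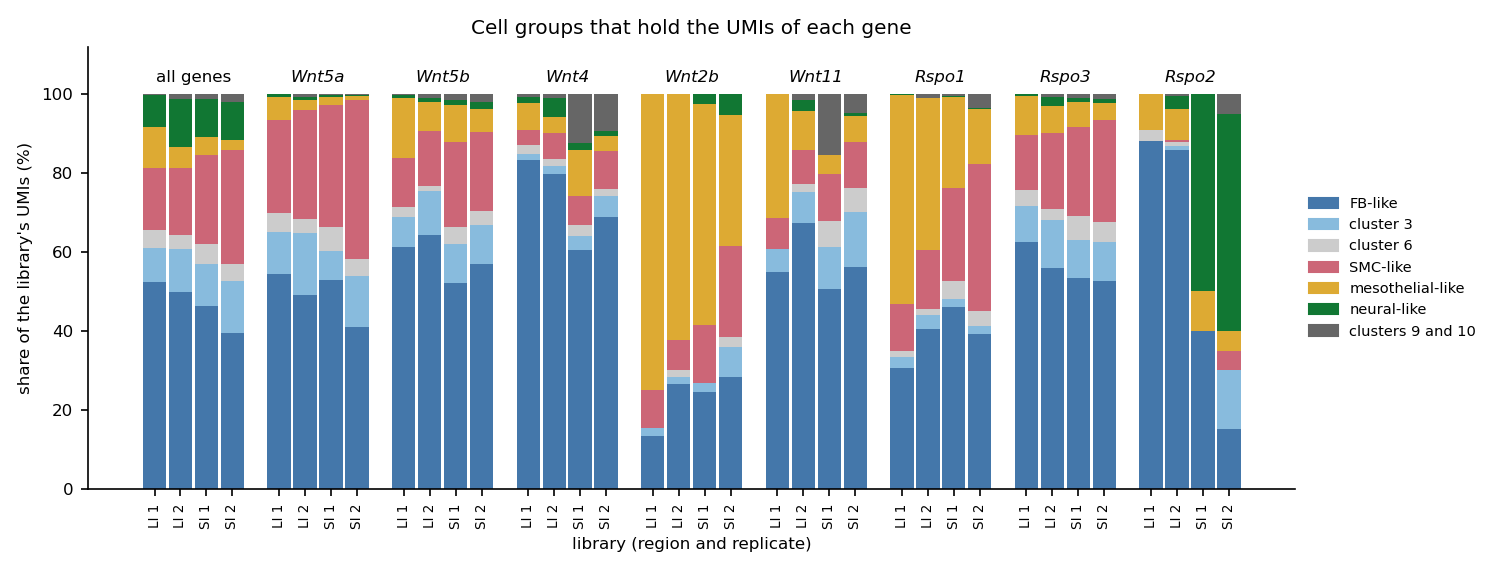
Share of the UMIs of all genes and of 8 members (y axis, percent of the UMIs of that gene in kept cells of a library) that fell in each cell group, with 1 bar per library. FB-like cells held most *Wnt4* and *Rspo3* UMIs in every library, mesothelial-like cells more of the *Wnt2b* and *Rspo1* UMIs than of all UMIs.

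A class with a high level need not hold most of the transcripts. Mesothelial-like cells held 10.4 and 5.45% of all UMIs in the LI libraries and 4.55 and 2.75% in the SI libraries. In the same order they held 75, 62.3, 56.1 and 33.3% of *Wnt2b* UMIs and 53.0, 38.6, 23.0 and 14.0% of *Rspo1* UMIs. SI replicate 2 had the smallest share of mesothelial-like cells, 2.74%, and LI replicate 1 the largest, 10.5%. FB-like cells held 52.6 to 62.4% of *Rspo3* UMIs and 40.9 to 54.4% of *Wnt5a* UMIs, beside 39.6 to 52.4% of all UMIs.

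**Figure D5:**
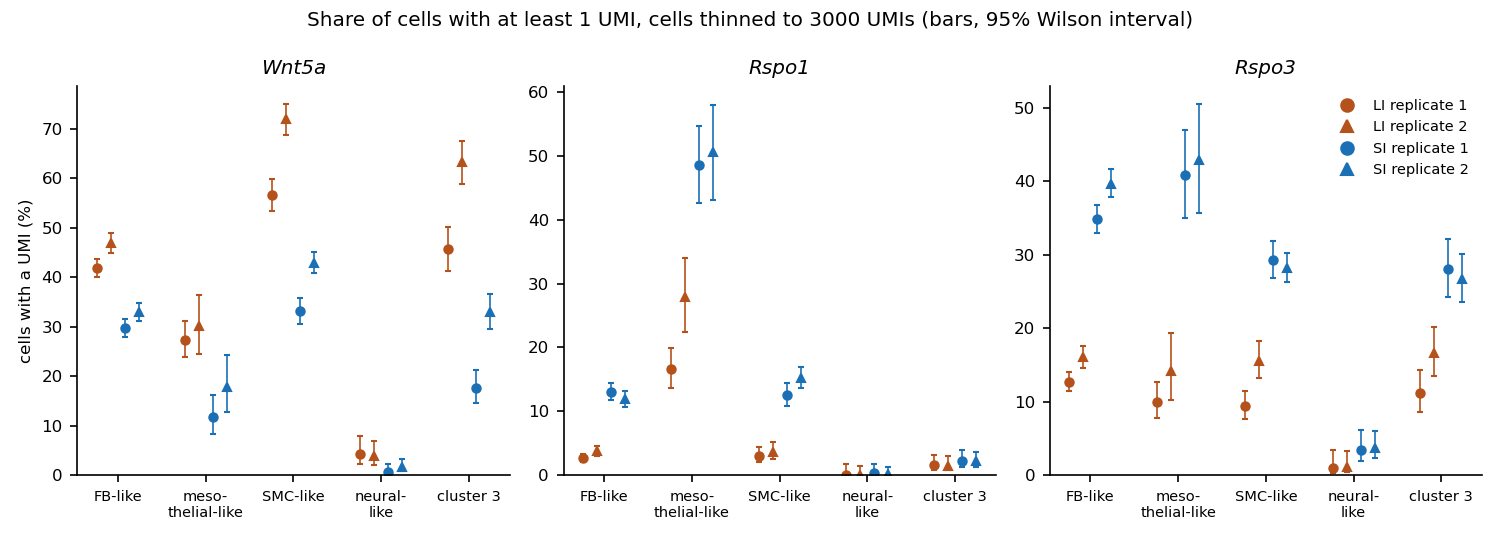
Share of cells with at least 1 UMI of *Wnt5a*, *Rspo1* or *Rspo3* (y axis, percent) after each cell was thinned to 3000 UMIs, by class and library, with 95% Wilson intervals. *Rspo1* was found in 48.6 and 50.6% of SI and 16.5 and 27.9% of LI mesothelial-like cells and in at most 0.313% of neural-like cells.

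The share of cells with a UMI followed the levels once cells were thinned to 3000 UMIs (no test is given, since 2 libraries against 2 cannot go below an exact two-sided p of 0.33). *Rspo3* was found in 12.7 and 16.03% of FB-like cells in LI and 34.8 and 39.7% in SI. *Wnt5a* was found in 41.9 and 47.0% in LI and 29.8 and 33.0% in SI. Unthinned, the mean *Wnt5a* shares were 58.7% in LI and 59.2% in SI, with LI replicate 1 the shallowest library, and the order was lost. In SMC-like cells *Wnt5a* was found in 56.6 and 71.9% of cells in LI and 33.1 and 43.0% in SI.

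The rarer members were found in few cells of part of the classes, and the level of free RNA was not measured for them. *Wnt4* was found in 0.472 to 1.17% of neural-like cells, whose median depth was 11108 to 19853 UMIs against 4033 to 9298 in FB-like cells before thinning. SMC-like cells held it in 0.699 to 1.31%, a range that overlaps that of neural-like cells. The mean level of SMC-like cells was 2.85 CPM in LI and 4.54 CPM in SI, against 2.67 and 1.99 CPM in neural-like cells. Whether these low shares are expression or free RNA was not tested. In SI 7.004 and 5.95% of mesothelial-like cells held *Wnt4*. In LI 1.60 and 2.21% of mesothelial-like cells held it, with Wilson intervals of 0.845 to 3.02% and 0.949 to 5.07% that overlap the shares of neural-like cells. *Wnt2b* was found in 2.38 to 3.98% of mesothelial-like cells and in at most 0.467% of cells of the other 3 classes. *Rspo2* was found in 1.13 and 2.24% of FB-like cells in LI and in 0.0428 and 0.0395% in SI, which is 1 cell each.

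Cells with 1 member were compared with cells without it for another member. In FB-like cells *Rspo3* was found in 26.0 and 30.7% of LI cells with *Rspo1* against 12.3 and 15.5% of those without. In SI the corresponding shares were 44.3 and 41.7% with and 33.4 and 39.4% without *Rspo1*. The share was higher with *Rspo1* in all 4 libraries, by the least in SI replicate 2. For *Wnt4* and *Wnt5a* the order was mixed, with *Wnt5a* more frequent among cells with *Wnt4* in 1 library only (LI replicate 2, 60.3 against 46.6%).

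Over 39 sums of cluster and library, the genes closest to *Wnt5a* among 6519 genes were *Col23a1* (Pearson r = 0.945), *Ror2* (0.940) and *Lsp1* (0.935). The closest to *Rspo1* were *Plp2* (0.895), *Wfdc2* (0.876) and *Cdc42ep3* (0.869), and to *Rspo3* *Dlk1* (0.882), *Camk1* (0.876) and *Tmem176a* (0.858). *Wnt4* and *Wnt11* correlated at 0.688 over 19 LI and 0.828 over 20 SI sums, and *Wnt2b* and *Rspo1* at 0.880 and 0.593. Sums of 1 library share its depth and handling, and clusters of 1 class are alike, so that these values are descriptions.

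Finally, the other genes of the pathway were read from the same fits. Among 13 other WNT and R-spondin genes, 2 were tested in FB-like cells. *Wnt16* measured 21.6 and 19.4 CPM in LI and 0.939 and 0.266 CPM in SI (−4.92 ± 0.43, adjusted p = 0.00124), and it was also called lower in SI in SMC-like cells (−5.27 ± 0.32, adjusted p = 0.000366). In both classes it passed the filter on low counts only because of the LI libraries, where it is high. In neural-like cells *Wnt16* had the opposite order, 1.69 and 1.26 CPM in LI and 2.82 and 3.85 CPM in SI, and was not called (1.20 ± 0.51, adjusted p = 0.57). *Wnt9a* was measured at 22.9 to 26.8 CPM in mesothelial-like and 1.86 to 4.11 CPM in FB-like cells (3.26 ± 0.20, adjusted p = 2.57e-08) and was not called between regions.

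Of the secreted antagonists 7 of 10 were tested in FB-like cells. *Sfrp1*, which binds WNT ligands, was called higher in SI (2.24 ± 0.23, adjusted p = 0.0022), and *Wif1* higher in LI (−2.67 ± 0.54, adjusted p = 0.0396) at 0.177 to 1.61 CPM. DESeq2 called 2 of these antagonists higher in SI and 0 lower, so that the *Wif1* call was lost. *Sfrp1* was called higher in SI also in mesothelial-like (1.43 ± 0.27, adjusted p = 0.0254) and SMC-like cells (2.49 ± 0.22, adjusted p = 0.00233). For the regions of FB-like cells, edgeR called 0 of 15 Frizzled genes and co-receptors (5 at an unadjusted p under 0.05, 0 by DESeq2), 0 of 3 tested R-spondin receptors and targets (0 and 0) and 0 of 7 tested response genes (0 and 0). The median log2 change was −0.11 over the Frizzled list and −0.23 over the response list, beside 0.01 over all genes. *Lgr5* was at no more than 1.08 CPM in any class.

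Receptors and response genes were also compared between classes. In mesothelial-like against FB-like cells 5 of 13 tested Frizzled genes and co-receptors were called higher, among them *Fzd4* (1.76 ± 0.16, adjusted p = 1.31e-06) and *Fzd6* (2.22 ± 0.38, adjusted p = 0.000407). The other 3 called were lower, among them *Ror2* (−1.37 ± 0.19, adjusted p = 8.38e-05). Of all genes, 38.6% were called in this test, 19.8% higher and 18.9% lower in mesothelial-like cells. *Wls*, the WNT carrier, was higher in mesothelial-like cells (1.08 ± 0.07, adjusted p = 3.79e-08), as were the response genes *Axin2* (1.28 ± 0.20, adjusted p = 0.000169) and *Lef1* (2.07 ± 0.43, adjusted p = 0.00152). Of 7 response genes tested these 2 were called higher and *Tcf7l2* lower (−0.48 ± 0.13, adjusted p = 0.00837), and the median log2 difference of the list was −0.27. These named genes are among the 4 of each list with the smallest adjusted p. *Axin2* measured 22.2 and 22.8 CPM in LI and 41.3 and 44.6 CPM in SI of mesothelial-like cells and 11.2 to 15.6 CPM in FB-like cells. Between regions it was not called in mesothelial-like cells (1.00 ± 0.25, adjusted p = 0.0989). Its SI and LI difference was larger in mesothelial-like than in FB-like cells by 1.03 ± 0.24 (adjusted p = 0.0211). That test called 3.58% of all genes, 1.36% shifted towards SI and 2.22% towards LI. DESeq2 called 0 of the response genes in it, so that the *Axin2* call was lost. In neural-like cells 9 of 13 Frizzled genes and co-receptors were called lower than in FB-like cells, among them *Ror2* (−4.15 ± 0.24, adjusted p = 3.23e-09), and 1, *Fzd3*, higher (0.88 ± 0.10, adjusted p = 3.7e-06), where 59.9% of all genes were called, 31% lower and 28.8% higher in neural-like cells.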

How the data were processed

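Single-cell RNA sequencing was analysed for 10 genes in 4 libraries, 2 of LI and 2 of SI. The values are UMI counts per gene and barcode, which the authors made with Cell Ranger 3.1.0 against mm10 and deposited without normalization; per the labels the submitters also used Seurat 3. The members and all gene lists were chosen with earlier results of these data known.

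Cells with at least 1000 genes and at most 10% mitochondrial UMIs were kept. Because Scrublet (scanpy 1.11.5) marked 1 to 6 doublets per library by its own threshold, the highest scores were removed at 0.8% per 1000 cells, 183 to 348 cells per library. Cells were clustered with Seurat 5.3.0 (R 4.3.3, 30 principal components, resolution 0.3) on 1962 variable genes without the WNT pathway lists. Clusters were named by a rule set with the data seen: at least 3 markers among the 10 leading genes, more than those of all other classes, for the mesothelial-like, SMC-like and neural-like classes; for FB-like, no such marker there, at least 3 FB markers each in 10% of cells, and at most 75% of cells from 1 library.

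For each library and class the counts of its cells were added up and tested with the edgeR 4.0.16 quasi-likelihood test, adjusted over all genes by the Benjamini-Hochberg method at 0.05. Region was tested within each class, classes with the library as a block, and the difference between region effects as an interaction. The 2 libraries of a region are the replicates; each is a pool of embryos, and p-values measure only the spread between these pools. DESeq2 1.42.0 and other filters, clusterings and subsets of cells were alternatives. In simulated counts, 73.5% of 200 genes changed by 1.5 on the log2 scale were recovered for FB-like cells (13731 genes) and 56.5% for mesothelial-like cells (10648 genes), and false calls made up 0.877 to 9.74% of calls over the comparisons simulated. Shares are given with Wilson 95% intervals or without an interval; intervals cover counting error only. Genes were named as follows: all members, and of each pathway list up to 4 called genes with the smallest adjusted p; *Wnt9a* between regions, *Lgr5* and *Fzd3* are outside this rule and were named after their values were seen. Genes most like a member were ranked by Pearson correlation of log2(CPM + 5) over sums of cluster and library.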

Additional observations from a re-analysis of the deposited data

Results flagged for a closer look

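For 4 members the SI to LI change differed between cell groups by the interaction term of the edgeR fit, which gave 5 results, and each of the 5 lost its call in at least 1 alternative. The log2 change of *Rspo1* in mesothelial-like cells minus that in FB-like cells was −0.87 (adjusted p = 0.00163). For *Wnt4* the same quantity was 1.47 (adjusted p = 0.0489). In cluster 3 minus FB-like cells it was −1.31 for *Rspo1* (adjusted p = 0.0167), −0.54 for *Rspo3* (adjusted p = 0.0473) and −0.76 for *Wnt5a* (adjusted p = 0.00465); these 3 comparisons with cluster 3 were added after the data were seen. Cluster 3 was left with 1.70 to 34.5% of its cells where cells with markers of other classes were left out. With those cells left out, the *Wnt4* value turned to −0.67 and that of *Rspo1* in cluster 3 was −0.16.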

How the results depend on the processing

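With 2 libraries per region, single libraries set part of the counts of members called. Leaving out 1 library at a time gave 3 to 6 called in FB-like cells (3 with all libraries), 2 to 3 in SMC-like cells (1), 0 to 2 in neural-like cells (1), 1 to 4 for SMC-like against FB-like cells (5), 0 to 1 for the interaction with SMC-like cells (0), 0 to 3 in cluster 3 (2) and 0 to 4 for its interaction (3). At the counts of 0, edgeR had 1 of 4 neural-like members without SI replicate 2, 4 of 6 in cluster 3 without SI replicate 1 and 3 of 7 for its interaction without LI replicate 2 at an unadjusted p under 0.05. The DESeq2 Wald test called 3 in SMC-like cells, 1 for the interaction with mesothelial-like cells (2) and 1 for that with cluster 3. With no filter on low counts, 3 were called in SMC-like cells and 4 in cluster 3, and at resolution 0.6, 3 in SMC-like cells and 3 for SMC-like against FB-like cells. Thinned sums gave 3 for SMC-like against FB-like cells and 0 of 7 for the mesothelial interaction (2 at an unadjusted p under 0.05). Leaving out cells with markers of other classes gave 3 for SMC-like against FB-like cells, 0 of 8 for the mesothelial interaction (1 unadjusted), 1 in cluster 3 and 1 for its interaction, and turned the *Wnt4* interaction in mesothelial-like cells to −0.67. Removing more doublets gave 1 for the mesothelial interaction, and G1 cells alone gave 1 for it, 1 in cluster 3 and 0 of 2 in neural-like cells (1 unadjusted). Causes were not tested.

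The labels give both regions the replicate numbers 1 and 2 without saying what they mark. Deviations of same-numbered libraries correlated at 0.29 in FB-like, 0.23 in mesothelial-like, 0.42 in SMC-like and 0.31 in neural-like cells, but 2 pairs do not settle a pairing, and the libraries are taken to share only a number. With the replicate number as a block, 4 members were called in FB-like, 4 in mesothelial-like, 4 in SMC-like, 1 in neural-like cells, 4 in cluster 3 and 3 in cluster 6. Over all genes, the block moved the count from 448 to 806 in FB-like, 122 to 763 in mesothelial-like, 189 to 1026 in SMC-like and 35 to 408 in neural-like cells, from 449 to 1032 in cluster 3 and from 159 to 428 in cluster 6. Without LI replicate 2 these counts were 1613 in FB-like, 911 in mesothelial-like, 782 in SMC-like and 1473 in neural-like cells, 1389 in cluster 3 and 1048 in cluster 6. The lowest were 244 in FB-like cells and 54 in cluster 3 (cells with markers of other classes left out), 60 in mesothelial-like cells (more doublets removed), 133 in SMC-like cells (thinned sums), 0 in neural-like cells (without SI replicate 2) and 69 in cluster 6 (G1 cells). Over the alternatives, the class comparisons called 2161 to 5074 (mesothelial-like, 4838 with the settings of the report), 549 to 2976 (SMC-like, 1483) and 4673 to 8056 genes (neural-like, 7496), and the interactions 158 to 817 (mesothelial-like, 473), 11 to 719 (SMC-like, 126) and 61 to 743 (cluster 3, 453).

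Shares of cells with a UMI moved with the thinning depth. At 2000 UMIs per cell and unthinned, *Wnt5a* in FB-like cells was at 35.2 and 58.7% in LI and 21.8 and 59.2% in SI. *Rspo3* was at 10.8 and 23.6% in LI and 28.0 and 66.2% in SI, and *Rspo1* at 1.94 and 6.27% in LI and 8.66 and 30.1% in SI. *Rspo1* in mesothelial-like cells was at 39.7% unthinned in LI and at 38.6 and 78.0% in SI.

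Of 33 called results of single members, 18 held in every alternative. Of their 431 alternatives 383 kept direction and call, 47 lost the call and 1 turned.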
